A study of Mus musculus with 6 samples.

Results

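Pools of mouse oocytes treated with short interfering RNA against Plat were compared with pools treated with control short interfering RNA, over all genes. The product of Plat, tissue-type plasminogen activator, is secreted and cuts plasminogen to release the active protease plasmin. The comparison used 4 of the 6 samples of the series: 2 pools labelled siCtrl and 2 labelled siPlat, each of 10 oocytes at metaphase II (MII) and labelled young. The other 2 samples are sets of single MII oocytes, labelled young and aged and with no treatment given, and enter no test here. All 14165 genes in the table of pools were considered, and 11136 of them had enough counts to be tested. The labels gave no strain, no donor animals, no siRNA sequence or dose and no time of treatment, so how the pools of a group relate to each other is not known, and the p-values measure only the spread between these samples, which may be technical.

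An MII oocyte has finished the first meiotic division and waits for fertilisation with a condensed, transcriptionally silent genome. It lives on RNA made during growth and stored until use. Many stored messages have short poly(A) tails, and maturation lengthens the tails of some of them, often through a cytoplasmic polyadenylation element (CPE) near the end of the transcript, while other messages lose their tails and decay. The libraries were made by Smart-seq2, which copies polyadenylated RNA. In such data fewer transcripts and shorter tails cannot be told apart, nor can fewer oocytes with a transcript and less of it in each oocyte of a pool.

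The libraries held 12142884 to 17475952 gene counts, and 12555 to 13178 genes had a count. The first principal component of the log2 levels separated the groups and held 49.9% of the variance. The second, with 29.5%, separated the siPlat libraries from each other. The root mean square difference between libraries was 0.67 on the log2 scale within siCtrl, 0.80 within siPlat and 0.86 to 0.92 between groups, so the groups stood only slightly further apart than the siPlat pools did. All 14 oocyte markers were tested, and their summed level was 34110 to 38331 CPM (counts scaled to the effective library size) in every library. By edgeR 4 of them fell, Mos, Gdf9, H1f8 and Zp1, and 10 did not pass. An unadjusted edgeR p under 0.05 was reached by 10 of the 14, against 2096 of 11136 over all tested genes. DESeq2 called 6 of the 14 markers and limma-voom 6, so the steady sum does not mean that each marker was steady. Zp1, a zona pellucida glycoprotein gene, had siCtrl pools far apart, at 129 and 222 CPM in siCtrl, against 81.1 and 60.3 CPM in siPlat, and its call was lost without siCtrl 2 or either siPlat library. Markers of other cells were low. Summed over the 7 of 15 cumulus and granulosa markers that the table holds, they were 43.0 and 50.2 CPM in siCtrl 1 and 2 and 40.8 and 56.9 CPM in siPlat 1 and 2. The 2 of 9 blood markers held summed to 8.12 and 8.41 CPM in siCtrl and 5.0 and 4.08 CPM in siPlat, and the 6 of 10 stroma and vessel markers to 28.8 and 27.8 CPM in siCtrl and 21.7 and 21.1 CPM in siPlat. None of the 10 tested genes of these 3 lists was called by edgeR, DESeq2 or limma-voom, with 2 at an unadjusted edgeR p under 0.05, and the part of other cells in the results was not tested.

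The targeted gene was low in both siPlat pools. Plat (chr8:22757727-22782844, mm10) was at 441 and 439 CPM in siCtrl 1 and 2, against 51.4 and 39.0 CPM in siPlat 1 and 2, and the groups lay far apart (log2 fold change -3.28, SE 0.19, edgeR adjusted p = 6.21e-06). Mos, the kinase that starts the Mek and Erk cascade holding the egg in MII, was at 682 and 913 CPM in siCtrl 1 and 2, against 231 and 279 CPM in siPlat 1 and 2 (log2 fold change -1.64, SE 0.18, edgeR adjusted p = 0.00101). The siCtrl libraries differed from each other more for Mos than the siPlat libraries did, yet the groups did not overlap. Gdf9, an oocyte growth factor for the surrounding cumulus cells, was at 2824 and 3017 CPM in siCtrl 1 and 2, against 1545 and 1724 CPM in siPlat 1 and 2 (log2 fold change -0.84, SE 0.14, edgeR adjusted p = 0.0102). The difference in Gdf9 no longer passed without siCtrl 1 (edgeR adjusted p = 0.0667) or without siCtrl 2 (adjusted p = 0.108). Prdx1, a peroxide-reducing enzyme and one of the most abundant genes called, was at 4685 and 4262 CPM in siCtrl 1 and 2, against 9953 and 8609 CPM in siPlat 1 and 2 (log2 fold change 1.05, SE 0.14, edgeR adjusted p = 0.00283). Prdx1 overlaps the noncoding gene AV051173, whose level was 2.52 to 4.17 CPM in siCtrl and 5.58 to 6.81 CPM in siPlat. Plat, Mos and Prdx1 passed with any 1 library left out.

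Genes were called at an edgeR adjusted p under 0.05. Of the 11136 tested genes 394 were called, or 3.54%, and 2096 had an unadjusted p under 0.05. The called genes comprised 237 that were higher in siPlat (2.13%) and 157 that were lower (1.41%). Among called genes the median log2 fold change was 0.99 for those higher and -1.22 for those lower, against -0.03 over all tested genes. The genes called lower had a lower median level, 38.1 CPM against 69.2 CPM for those called higher. At lower levels a larger fold is needed for a call, and the part of level in this difference was not tested. At least 2-fold changes were seen in 117 of the higher and 108 of the lower genes, and at least 4-fold changes in 32 and 38. As a description of genes selected by these calls, summed CPM are given as a share of the effective library size, which is not the share of raw counts. Those called higher were at 4.75% and 4.63% in siCtrl 1 and 2, rising to 8.60% and 8.07% in siPlat 1 and 2. The genes called lower were at 3.4% and 3.5% on the same measure in siCtrl, falling to 1.81% and 2.01% in siPlat. The number of calls changed with the libraries used, to 157 without siCtrl 1, 160 without siCtrl 2, 713 without siPlat 1 and 1145 without siPlat 2, and DESeq2 called 683.

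Calls were more frequent at high levels, where counts are more precise. In the lowest quintile of genes by mean level 0.673% were called, in the middle quintile 3.23% and in the highest 7.27%. In the highest quintile 114 genes were higher and 48 lower, and in the lowest quintile 3 were higher and 12 lower. The plot of change against level shows the same order.

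**Figure D1:**
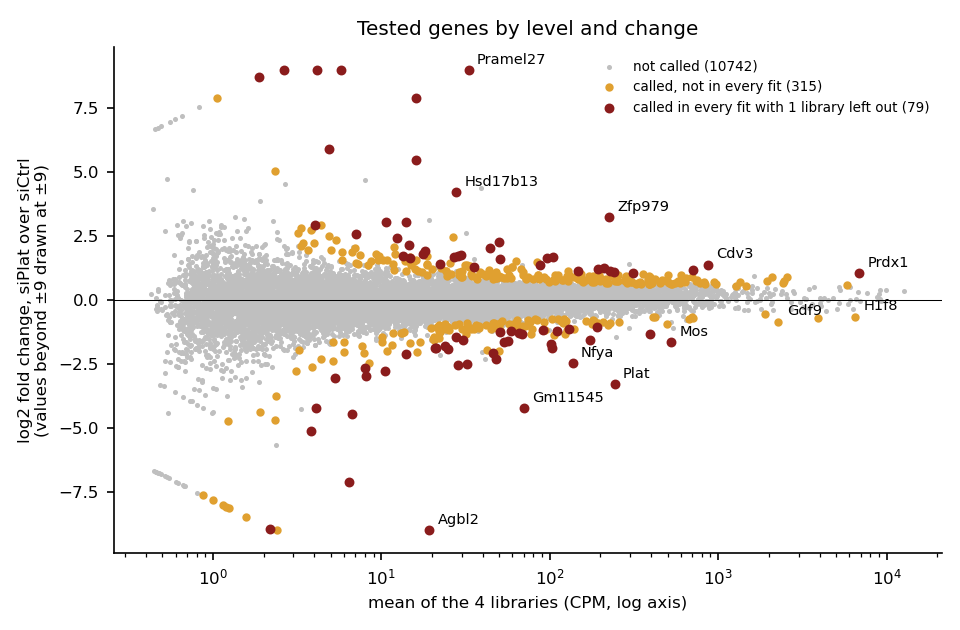
Log2 fold change of siPlat over siCtrl against the mean level of each tested gene in CPM on a log axis, with 1 point per gene. Red points are the 79 genes called with all libraries and with any 1 left out, orange points the other called genes, and changes of at least 2-fold lie mostly below 100 CPM while Prdx1 and Gdf9 are abundant genes with changes near or under 2-fold.

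A smaller group of 79 genes, 0.709% of those tested, was called with all 4 libraries and again in each of the 4 fits that left out 1 library. It held 40 higher and 39 lower genes, and all 79 changed at least 2-fold. Of the 79, 7 had 0 counts in both libraries of 1 group, and 14 overlap another gene of the table in their annotated span, introns included. Whether reads are shared in these overlaps was not examined. The strand setting of the counting was not given in the sources used here. Pramel genes, zinc finger genes and pseudogenes have close copies among which reads can be split, so their values are uncertain.

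Several of these genes were present in 1 group and at or near 0 in the other. Agbl2, which encodes a carboxypeptidase acting on tubulin tails, was at 42.8 and 34.2 CPM in siCtrl 1 and 2, against 0 and 0 CPM in siPlat 1 and 2, which is at least 316-fold lower in siPlat taking 3 counts over the group as the floor (edgeR adjusted p = 6.21e-06). Both siCtrl pools held counts of the gene and neither siPlat pool did. Agbl2 thus passed the filter only through siCtrl, so the direction of its change was set by the filter and its p-value is no support for it. The labels give no strain, so whether the donors of both groups shared one is not known for this or any other gene that was at or near 0 in 1 group. Rassf4, a Ras association domain gene, was at 12.8 and 12.6 CPM in siCtrl 1 and 2, against 0.172 and 0 CPM in siPlat 1 and 2, where the siPlat pools held 2 counts in all, a ratio of 155 with a 95% counting interval of 42.5 to 1282. The interval covers counting error only, since these PCR reads carry no molecular identifiers. E330014E10Rik was at 4.76 and 3.96 CPM in siCtrl 1 and 2, against 0 and 0 CPM in siPlat 1 and 2, which is at least 35.7-fold lower. It too passed the filter only through siCtrl. Olfr995, an olfactory receptor gene, was at 7.45 and 7.49 CPM in siCtrl 1 and 2, against 0.431 and 0 CPM in siPlat 1 and 2, and Fam171b at 15.3 and 10.4 CPM in siCtrl 1 and 2, against 0.345 and 0.785 CPM in siPlat 1 and 2. In these 4 genes too the groups did not overlap, which their selection on the calls favours.

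The opposite pattern was seen in 5 genes without a count in siCtrl. Pramel27, of a gene family active in germ cells and early embryos, was at 0 and 0 CPM in siCtrl 1 and 2, against 72.2 and 59.5 CPM in siPlat 1 and 2, which is at least 699.9-fold higher (edgeR adjusted p = 2.27e-06). 1700049E17Rik1 was at 0 and 0 CPM in siCtrl 1 and 2, against 13.4 and 9.66 CPM in siPlat 1 and 2, which is at least 122-fold higher. Phtf1os, an antisense gene overlapping Phtf1 and Rsbn1, was at 0 and 0 CPM in siCtrl 1 and 2, against 10.3 and 6.44 CPM in siPlat 1 and 2, which is at least 88.1-fold higher. Slc14a1, a urea transporter gene, and H2-T-ps, a pseudogene of the major histocompatibility complex, were low even in siPlat. Slc14a1 was at 0 and 0 CPM in siCtrl, against 5.60 and 5.03 CPM in siPlat, which is at least 56.6-fold higher, and H2-T-ps was at 0 and 0 CPM in siCtrl, against 2.24 and 5.26 CPM in siPlat, which is at least 40.8-fold higher. Over all tested genes, 13 had no count in either siCtrl library, of which 6 were called, and 24 had none in either siPlat library, of which 9 were called. Such genes passed the filter only through the group that held their counts, so the direction of their change was set by the filter. For that reason their shares cannot be read against the 3.54% called over all tested genes.

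Among genes detected in both groups, the largest decreases included Gm11545, an unprocessed pseudogene, at 140.0 and 127 CPM in siCtrl 1 and 2, against 7.50 and 6.91 CPM in siPlat 1 and 2 (log2 fold change -4.21, SE 0.21, edgeR adjusted p = 2.27e-06). Tnfsf11, the cytokine RANKL, was at 7.17 and 8.48 CPM in siCtrl 1 and 2, against 0.345 and 0.471 CPM in siPlat 1 and 2 (log2 fold change -4.22, SE 0.52, edgeR adjusted p = 0.00169). Dgkh, a diacylglycerol kinase gene, was at 11.0 and 7.91 CPM in siCtrl 1 and 2, against 1.29 and 1.02 CPM in siPlat 1 and 2 (log2 fold change -3.03, SE 0.43, edgeR adjusted p = 0.00425). The replicates of each of these 3 genes lay close together compared with the distance between groups. Trim21, an antibody-binding ubiquitin ligase, was at 13.4 and 14.2 CPM in siCtrl, against 2.07 and 2.36 CPM in siPlat (log2 fold change -2.64, SE 0.34, edgeR adjusted p = 0.00283). Nfya, which gives the trimeric factor NF-Y its contact with the CCAAT motif, was at 235 and 228 CPM in siCtrl, against 41.6 and 42.2 CPM in siPlat (log2 fold change -2.46, SE 0.17, edgeR adjusted p = 2.56e-05), and was the most abundant gene after Plat to fall more than 4-fold with any library left out. Abl2, a tyrosine kinase that acts on the cytoskeleton, was at 169 and 142 CPM in siCtrl, against 37.9 and 58.1 CPM in siPlat (log2 fold change -1.69, SE 0.22, edgeR adjusted p = 0.00290). Smim14, a small membrane protein gene, was at 567 and 557 CPM in siCtrl, against 211 and 241 CPM in siPlat (log2 fold change -1.31, SE 0.16, edgeR adjusted p = 0.00141). Marchf7, a ubiquitin ligase, was at 226 and 288 CPM in siCtrl, against 85.1 and 92.0 CPM in siPlat (log2 fold change -1.54, SE 0.18, edgeR adjusted p = 0.00141).

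Among the increases, Hsd17b13, a lipid droplet protein gene, was at 3.36 and 2.26 CPM in siCtrl 1 and 2, against 58.4 and 47.6 CPM in siPlat 1 and 2 (log2 fold change 4.22, SE 0.28, edgeR adjusted p = 2.02e-05). The noncoding gene Gm17830 was at 0.224 and 0 CPM in siCtrl, against 27.1 and 36.7 CPM in siPlat and 1700019D03Rik at 0.728 and 0.636 CPM in siCtrl, against 39.1 and 23.4 CPM in siPlat. Both were close to absent in siCtrl and clearly present in both siPlat pools. Cdv3, an abundant and widely expressed gene, was at 466 and 495 CPM in siCtrl 1 and 2, against 1241 and 1280.5 CPM in siPlat 1 and 2 (log2 fold change 1.39, SE 0.14, edgeR adjusted p = 0.000625), with replicates close together in both groups. Rbm39, a splicing factor, was at 396 and 469 CPM in siCtrl, against 1054 and 933 CPM in siPlat (log2 fold change 1.20, SE 0.16, edgeR adjusted p = 0.00287). Etaa1, an activator of the ATR checkpoint kinase, was at 152 and 157 CPM in siCtrl, against 328 and 330.4 CPM in siPlat (log2 fold change 1.09, SE 0.16, edgeR adjusted p = 0.00426). Pnrc1, a nuclear receptor coregulator, was at 132 and 119.7 CPM in siCtrl, against 262 and 332 CPM in siPlat (log2 fold change 1.24, SE 0.18, edgeR adjusted p = 0.00425), and Otulin, which removes linear ubiquitin chains, at 10.8 and 15.9 CPM in siCtrl, against 51.2 and 36.0 CPM in siPlat (log2 fold change 1.71, SE 0.27, edgeR adjusted p = 0.00774).

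A further 3 of the 40 higher genes are described here, chosen after their values were seen, so they stand for no gene group. Sycp3, a component of the synaptonemal complex that joins homologous chromosomes, was at 144 and 141 CPM in siCtrl 1 and 2, against 324 and 299.8 CPM in siPlat 1 and 2 (log2 fold change 1.13, SE 0.16, edgeR adjusted p = 0.00414). Hormad1, which marks unsynapsed chromosome axes, was at 121 and 109 CPM in siCtrl 1 and 2, against 305 and 237 CPM in siPlat 1 and 2 (log2 fold change 1.24, SE 0.18, edgeR adjusted p = 0.00488). Mnd1, a partner of the recombinases in strand exchange, was at 15.9 and 11.0 CPM in siCtrl 1 and 2, against 49.1 and 43.2 CPM in siPlat 1 and 2 (log2 fold change 1.77, SE 0.24, edgeR adjusted p = 0.00352). In all 3 genes both siPlat pools lay above both siCtrl pools, which their choice among called genes favours. Sycp3 overlaps Chpt1 on the genome.

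**Figure D2:**
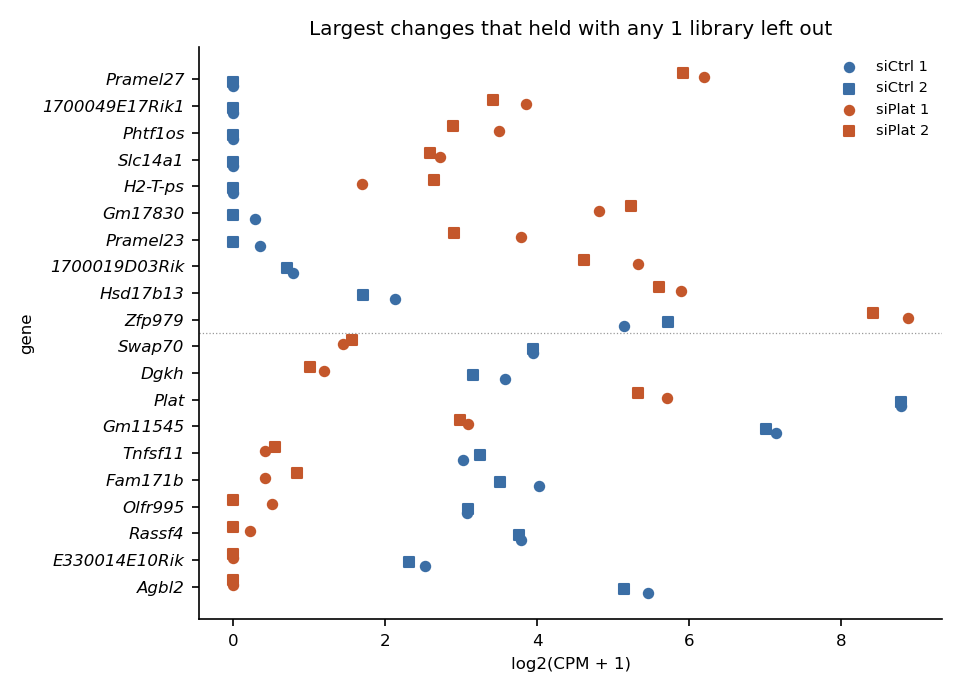
Level as log2(CPM + 1) in each of the 4 pools for the 10 highest and 10 lowest log2 fold changes among genes called with any 1 library left out; blue is siCtrl, orange siPlat, circles replicate 1 and squares replicate 2. In each of the 20 genes the siCtrl and siPlat points do not overlap, which the selection of these genes favours. H2-T-ps, at 2.24 and 5.26 CPM in siPlat and 0 CPM in both siCtrl pools, is a gene with wide spread between its siPlat replicates.

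In absolute level the largest changes were in abundant genes with moderate folds. Behind Prdx1, the RNA-binding protein gene Ssb (La) was at 4909.7 and 4291 CPM in siCtrl 1 and 2, against 7047 and 6932 CPM in siPlat 1 and 2 (log2 fold change 0.60, SE 0.13, edgeR adjusted p = 0.0325). Dazl, an RNA-binding activator of translation in germ cells, was at 1647 and 1870.2 CPM in siCtrl 1 and 2, against 3566 and 3093 CPM in siPlat 1 and 2 (log2 fold change 0.92, SE 0.15, edgeR adjusted p = 0.00799). Eif2s2, the beta subunit of the factor that brings the initiator tRNA to the ribosome, was at 1372 and 1505 CPM in siCtrl 1 and 2, against 2889 and 2530.1 CPM in siPlat 1 and 2 (log2 fold change 0.91, SE 0.14, edgeR adjusted p = 0.00774). Sfr1, a recombination cofactor, was at 1746 and 1921 CPM in siCtrl, against 3042 and 3093 CPM in siPlat, Ypel5 at 1921 and 1819.8 CPM in siCtrl, against 3228 and 2734 CPM in siPlat and Zcchc10 at 1595 and 1334 CPM in siCtrl, against 2741 and 2135 CPM in siPlat. The largest loss was in H1f8, the oocyte linker histone, at 7635 and 8224 CPM in siCtrl 1 and 2, against 4444 and 5691 CPM in siPlat 1 and 2 (log2 fold change -0.65, SE 0.15, edgeR adjusted p = 0.0390). E330021D16Rik was at 4964 and 4647 CPM in siCtrl 1 and 2, against 2739.6 and 3251 CPM in siPlat 1 and 2 (log2 fold change -0.68, SE 0.14, edgeR adjusted p = 0.0260). Rfpl4, an oocyte RING finger protein gene, was at 2328 and 2173 CPM in siCtrl, against 1537 and 1525 CPM in siPlat (log2 fold change -0.56, SE 0.14, edgeR adjusted p = 0.0490). Ssb, Sfr1, Ypel5, Zcchc10, H1f8, E330021D16Rik and Rfpl4 lost their calls without siCtrl 1 and without siCtrl 2, and Dazl and Eif2s2 lost theirs without siCtrl 1.

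Gene lists by function were then read for the direction of their members. The 41 lists held 1188 distinct tested genes, of which 47 were called, 23 higher and 24 lower, or 3.96% against the 3.54% of all tested genes, a share near the background. The median log2 fold change over the members was -0.01 against -0.03 over all tested genes. List medians ran from -0.36 to 0.24, 17 lists held no call by edgeR and no list had more than 5. DESeq2 called 111 of the members and limma-voom 56. Leaving out a siCtrl library removed many of these calls, 29 of 47 without siCtrl 1 and 28 without siCtrl 2, while 3, Tubb2a, Ergic3 and Spink2, were lost without siPlat 1 and the same 3 without siPlat 2.

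**Figure D3:**
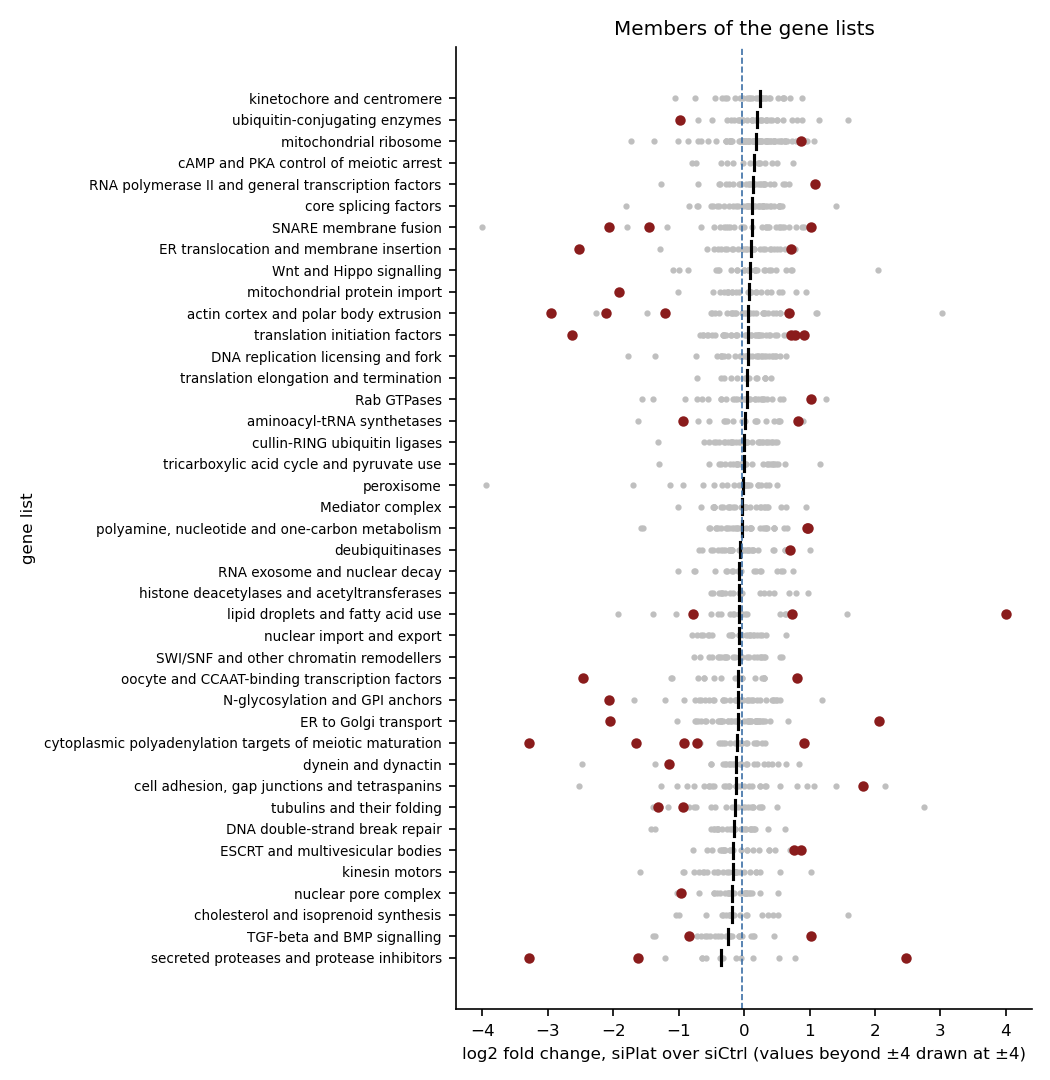
Log2 fold change of siPlat over siCtrl for the tested members of the 41 gene lists, 1 row per list and 1 point per gene; red points are called members, black bars list medians, and the dashed line the median of all tested genes (-0.03). Called members lie on both sides of 0 in many lists, and the medians stay between -0.36 and 0.24.

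The list of messages known for cytoplasmic polyadenylation during meiotic maturation had 5 calls by edgeR, or 4 without the targeted gene Plat, as many as the initiation factors and the actin cortex list. DESeq2 called 6 of its members against 8 of the initiation factors. Among its 24 tested members 4 fell (Plat, Mos, Bub1b and Fbxo43), Dazl rose and 19 did not pass, and the median was -0.11. Bub1b, the spindle checkpoint kinase BubR1, was at 712 and 593 CPM in siCtrl 1 and 2, against 375 and 312 CPM in siPlat 1 and 2 (log2 fold change -0.93, SE 0.17, edgeR adjusted p = 0.0146). Fbxo43, which encodes Emi2 and so keeps the anaphase-promoting complex inactive until fertilisation, was at 130.3 and 126 CPM in siCtrl 1 and 2, against 77.4 and 78.2 CPM in siPlat 1 and 2 (log2 fold change -0.72, SE 0.17, edgeR adjusted p = 0.0415). Cdc20, an activator of that complex, was at 99.9 and 86.4 CPM in siCtrl, against 53.1 and 61.7 CPM in siPlat and did not pass (log2 fold change -0.70, SE 0.19, edgeR adjusted p = 0.0691). The call of Fbxo43 was lost without siCtrl 1 or siCtrl 2, and those of Bub1b and Dazl without siCtrl 1. Plat was chosen as the target of the siRNA, so its place in the list is set by the design.

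The stretch around the CPE motif nearest the transcript end is given for 4 called genes, Plat, Bub1b, Gdf9 and Nfya. Plat and Bub1b are members of the list of polyadenylated messages, and Gdf9 and Nfya are not. For this search 8 called genes were picked, and these 4 hold the motif in the last 100 bases of the annotated transcript (GENCODE, GRCm38). The others were Prdx1 and the list members Mos, Fbxo43 and Dazl. Other called genes also hold the motif and are counted below the sequences. The capitals mark the motif, TTTTAT or TTTTAAT, read on the transcript strand only.
Plat, 30 bases: tttataTTTTAATctattttagtttttact
Bub1b, 30 bases: tgtgtaTTTTATaataaaatagtttttgtt
Gdf9, 30 bases: ctgtggTTTTATgtgacggaagaataaact
Nfya, 30 bases: tttcttTTTTAATaaatttataaaaatact
The motif starts 89 bases from the end in Plat, 27 in Bub1b, 39 in Gdf9 and 31 in Nfya. For the other 4 genes the search says only that these letters are not in that window. Over all tested genes with a transcript end to search, 21.1% (2089 of 9919) hold the motif there. The share was 32.4% (46 of 142) of the genes called lower and 23.2% (49 of 211) of those called higher. In the highest quintile by level the motif was found in 38.6% (17 of 44) of the genes called lower, 27 of 108 of those called higher and 27.6% of those not called, and in the middle quintile in 43.3%, 30.3% and 20.4%. In the quintile just below the highest the gap was small, at 26.7% (12 of 45) of the genes called lower, 14.9% of those called higher and 22.4% of those not called. In the quintile just above the lowest the shares were 33.3% (4 of 12), 23.8% and 16.4%. In the lowest quintile none of 11 genes called lower held it. These shares are descriptions, and no test was made of them.

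In translation and transcription, initiation factors held 3 members that rose and 1 that fell among 40. Besides Eif2s2, Eif5, which triggers GTP hydrolysis at the start codon, was at 1065 and 989 CPM in siCtrl, against 1509.8 and 1857 CPM in siPlat (log2 fold change 0.71, SE 0.15, edgeR adjusted p = 0.0280), and Eif3e, a subunit of the scaffold factor eIF3, at 366 and 321 CPM in siCtrl, against 682 and 496 CPM in siPlat (log2 fold change 0.78, SE 0.18, edgeR adjusted p = 0.0400). Eif1a fell at a low level, from 6.27 and 7.06 CPM in siCtrl to 1.29 and 0.864 CPM in siPlat (log2 fold change -2.62, SE 0.47, edgeR adjusted p = 0.0146). The median of the list was 0.06. The calls of Eif5 and Eif3e were lost without siCtrl 1 or siCtrl 2, that of Eif2s2 without siCtrl 1 and that of Eif1a without siCtrl 2. Of 21 aminoacyl-tRNA synthetase genes, Farsb rose (0.83), Qars fell (-0.93) and 19 did not pass, and both calls were lost without either siCtrl library. Taf10, a subunit shared by TFIID and the SAGA coactivator, was the single call among 31 genes of RNA polymerase II and the general factors, at 197 and 203 CPM in siCtrl 1 and 2, against 419 and 427 CPM in siPlat 1 and 2 (log2 fold change 1.08, SE 0.15, edgeR adjusted p = 0.00414), and it overlaps Ilk.

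Among 19 oocyte and CCAAT-binding transcription factors Nfya fell (-2.46) while Nfyb, one of its histone-fold partners, rose from 67.4 and 57.0 CPM in siCtrl to 116 and 102 CPM in siPlat (log2 fold change 0.81, SE 0.18, edgeR adjusted p = 0.0371), and the other 17 did not pass. Nfyc, the third subunit of NF-Y, was at 34.4 and 28.8 CPM in siCtrl, against 32.0 and 46.3 CPM in siPlat and was among those that did not pass (log2 fold change 0.31, edgeR adjusted p = 0.528). The call of Nfyb was lost without either siCtrl library. None of 41 core splicing factors, 14 elongation and termination genes, 30 Mediator genes and 27 chromatin remodellers passed by edgeR, with 12, 1, 6 and 3 of them at an unadjusted p under 0.05. Over all tested genes 2096 of 11136 had such a p. Among the splicing factors 5 passed by DESeq2 and 2 by limma-voom. In the Mediator list 2 passed by DESeq2 and 0 by limma-voom, and neither tool called an elongation or remodeller gene.

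Among genes of the cytoskeleton, of 38 in the list of the actin cortex and polar body extrusion, Swap70, Pak3 and Daam1 fell, Rac1 rose and 34 did not pass. Swap70, an actin-binding partner of Rac, was at 14.3 and 14.3 CPM in siCtrl 1 and 2, against 1.72 and 1.96 CPM in siPlat 1 and 2 (log2 fold change -2.95, SE 0.35, edgeR adjusted p = 0.00141). Pak3, a kinase activated by Rac and Cdc42, was at 23.4 and 21.8 CPM in siCtrl 1 and 2, against 4.65 and 5.81 CPM in siPlat 1 and 2 (log2 fold change -2.11, SE 0.28, edgeR adjusted p = 0.00326). Daam1, a formin that nucleates actin filaments, was at 159 and 152 CPM in siCtrl 1 and 2, against 69.9 and 63.9 CPM in siPlat 1 and 2 (log2 fold change -1.21, SE 0.17, edgeR adjusted p = 0.00425). These 3 genes passed with any library left out. Rac1, the small GTPase itself, was at 630.2 and 563 CPM in siCtrl, against 898 and 1021 CPM in siPlat (log2 fold change 0.69, SE 0.15, edgeR adjusted p = 0.0315), a call lost without siCtrl 1 or siCtrl 2. Of 25 tubulin and tubulin-folding genes Tubb2a (-1.32) and Tuba1c (-0.93) fell; Tubb2a was at 80.5 and 141 CPM in siCtrl, against 46.7 and 41.9 CPM in siPlat and its call was lost without siCtrl 2 or either siPlat library, and that of Tuba1c without either siCtrl library. Dynlt1b, a dynein light chain, fell (-1.15) among 25 dynein and dynactin genes, a call lost without siCtrl 2. None of 29 kinesin genes passed by edgeR, with 7 at an unadjusted p under 0.05 and 3 called by DESeq2 and 0 by limma-voom, and 23 of the 29 had a value below 0 (median -0.17). None of 31 kinetochore genes passed by edgeR, with 8 at an unadjusted p under 0.05, 4 called by DESeq2, 0 by limma-voom and a median of 0.24. An unadjusted p under 0.05 was found for 2096 of all 11136 tested genes.

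In membrane traffic, called genes went both ways. Vamp3, a SNARE of recycling endosomes, was at 78.1 and 71.0 CPM in siCtrl 1 and 2, against 16.0 and 19.7 CPM in siPlat 1 and 2 (log2 fold change -2.06, SE 0.21, edgeR adjusted p = 0.000516) and passed with any library left out. It overlaps Camta1. Stxbp3, which regulates SNARE assembly, fell (-1.46), Vti1a, a SNARE of the Golgi, rose (1.02) and 30 of 33 SNARE genes did not pass. Bcap29, an endoplasmic reticulum membrane protein, was at 49.8 and 47.6 CPM in siCtrl 1 and 2, against 7.67 and 9.19 CPM in siPlat 1 and 2 (log2 fold change -2.53, SE 0.23, edgeR adjusted p = 0.000236), while Srp9 of the signal recognition particle rose (0.72) among 32 genes of translocation into the endoplasmic reticulum. Of 45 genes of transport from the endoplasmic reticulum to the Golgi, Ergic3 fell from 15.3 and 36.9 CPM in siCtrl to 6.89 and 5.73 CPM in siPlat and Sft2d3 rose from 3.19 and 6.08 CPM in siCtrl to 18.5 and 19.9 CPM in siPlat. Pigt, of the complex that attaches GPI anchors, fell (-2.07), Rab21 rose (1.03), and Chmp5 (0.76) and Chmp2b (0.87), ESCRT subunits, rose among 23 tested. Without siCtrl 1 or siCtrl 2 the calls of Stxbp3, Vti1a, Srp9, Rab21, Chmp5 and Chmp2b were lost. Those of Pigt and Sft2d3 were lost without siCtrl 1, and that of Ergic3 without siCtrl 2 or either siPlat library.

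In metabolism and mitochondria, 2 genes of polyamine handling rose. Sms, spermine synthase, was at 409 and 400.2 CPM in siCtrl 1 and 2, against 793 and 788 CPM in siPlat 1 and 2 (log2 fold change 0.97, SE 0.14, edgeR adjusted p = 0.00563), and Sat1, which acetylates spermidine and spermine for export or breakdown, was at 63.2 and 52.1 CPM in siCtrl 1 and 2, against 131 and 96.1 CPM in siPlat 1 and 2 (log2 fold change 0.98, SE 0.21, edgeR adjusted p = 0.0277). The other 33 tested members of their list did not pass, and both calls were lost without siCtrl 1 or siCtrl 2. Fasn, fatty acid synthase, fell (-0.78) while the fatty acid binding protein gene Fabp5 rose (0.73). Timm10, a chaperone of the mitochondrial intermembrane space, was at 33.5 and 44.9 CPM in siCtrl 1 and 2, against 12.9 and 8.01 CPM in siPlat 1 and 2 (log2 fold change -1.91, SE 0.28, edgeR adjusted p = 0.00545) and was the single call among 26 import genes. Mrpl34 rose (0.87) among 74 mitochondrial ribosome genes, whose median was 0.18. Fasn, Fabp5 and Mrpl34 also lost their calls without siCtrl 1 or siCtrl 2.

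In protein turnover and signalling, Uba6, an activating enzyme for ubiquitin, fell (-0.98) and Uchl1, an abundant oocyte hydrolase of ubiquitin, rose from 629 and 623 CPM in siCtrl to 1077 and 962 CPM in siPlat (log2 fold change 0.70, SE 0.14, edgeR adjusted p = 0.0257). Smad4, the common mediator of TGF-beta signalling, was at 105 and 98.0 CPM in siCtrl 1 and 2, against 152 and 262 CPM in siPlat 1 and 2 (log2 fold change 1.03, SE 0.23, edgeR adjusted p = 0.0398), where siPlat 2 stood well above siPlat 1. Gdf9 was the other call in that list of 25, which had a median of -0.24. Nup153 of the nuclear pore basket fell (-0.97) among 24 pore genes. Among 15 secreted proteases and inhibitors Plat and Astl fell and Spink2 rose, with a median of -0.36. Astl, the egg protease that hardens the zona pellucida after fertilisation, was at 69.9 and 91.6 CPM in siCtrl 1 and 2, against 23.1 and 29.3 CPM in siPlat 1 and 2 (log2 fold change -1.62, SE 0.22, edgeR adjusted p = 0.00326). Spink2, a protease inhibitor, was at 4.76 and 11.6 CPM in siCtrl 1 and 2, against 57.7 and 32.5 CPM in siPlat 1 and 2 (log2 fold change 2.48, SE 0.46, edgeR adjusted p = 0.0355), with wide spread in both groups. Tspan12, a tetraspanin, rose (1.82) among 33 adhesion and junction genes. The calls of Uba6, Uchl1, Smad4 and Gdf9 were lost without siCtrl 1 or siCtrl 2. Nup153 was lost without siCtrl 1, Tspan12 without siCtrl 2 and Spink2 without either siPlat library.

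Called genes were also read along the chromosomes. Stretches with at least 4 called genes among 10 neighbouring tested genes were looked for, and 6 were found. They were selected on the calls, so their counts are a description. The longest held 17 tested genes on chromosome 4 from 145670685 to 147848366 (mm10), between Zfp980 and Zfp933, nearly all zinc finger genes of a rodent family of close copies. Of the 17, 8 were higher and 1 was lower, and 5 passed with any library left out. Zfp979 was at 34.3 and 51.6 CPM in siCtrl 1 and 2, against 469 and 339.6 CPM in siPlat 1 and 2 (log2 fold change 3.24, SE 0.24, edgeR adjusted p = 5.93e-05). Zfp980 was at 18.6 and 16.2 CPM in siCtrl 1 and 2, against 68.9 and 73.2 CPM in siPlat 1 and 2 (log2 fold change 2.02, SE 0.20, edgeR adjusted p = 0.000469). Zfp984 was at 5.10 and 5.58 CPM in siCtrl, against 29.8 and 18.1 CPM in siPlat and Zfp992 at 3.70 and 4.10 CPM in siCtrl, against 15.8 and 26.2 CPM in siPlat. In these 4 genes both siPlat pools lay above both siCtrl pools, which their choice among called genes favours. Neighbours did not all move with them: Zfp981 was at 12.6 and 8.62 CPM in siCtrl, against 4.22 and 3.85 CPM in siPlat and did not pass (edgeR adjusted p = 0.0556), and Zfp933 fell from 20.9 and 24.4 CPM in siCtrl to 9.48 and 4.71 CPM in siPlat (edgeR adjusted p = 0.0240), a call lost without siCtrl 2. Of the other genes of the stretch that did not pass, Zfp991 (4.69), Gm13034 (3.18), Znf41-ps (2.09), Zfp987 (1.81) and Zfp982 (0.67) had positive values. Those of Zfp988 (-1.42) and Zfp985 (-0.33) were negative, and the median over the 17 was 1.81. Over the whole table, 8 of 276 tested genes named Zfp were higher and 6 were lower, with a median of -0.11. Of all 11136 tested genes 237 (2.13%) were higher and 157 (1.41%) lower. The higher genes named Zfp include those called in this stretch.

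**Figure D4:**
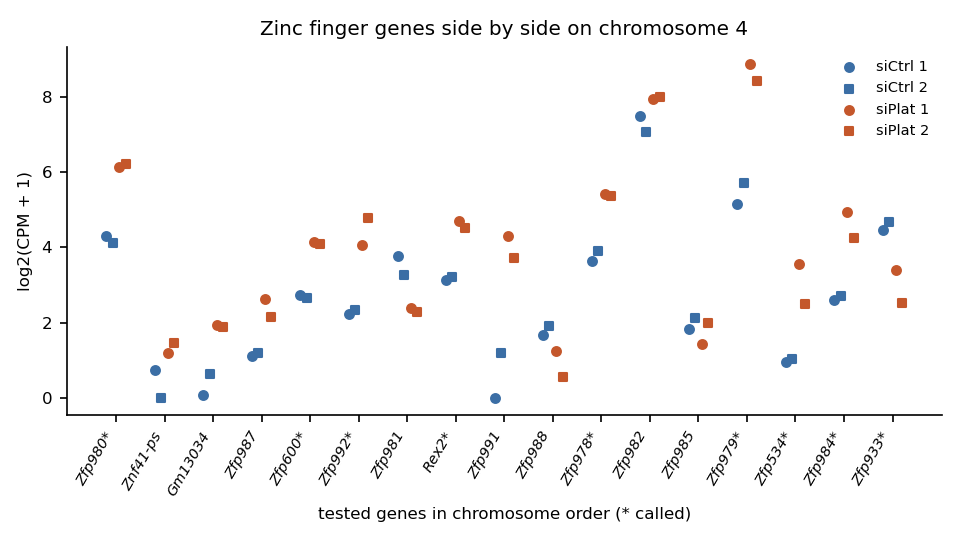
Level as log2(CPM + 1) in each of the 4 pools for the 17 neighbouring tested genes from Zfp980 to Zfp933 in chromosome order; blue is siCtrl, orange siPlat, circles replicate 1, squares replicate 2, and an asterisk marks called genes. Zfp979 has the largest rise among the called genes, while Zfp933 falls.

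The promoters of Zfp979, Zfp980 and Zfp984, all higher in siPlat, are shown because they share a run of bases that few other promoters hold. Each is 300 bases from RefSeq (GRCm38.p6), 250 before and 50 after the annotated start, read on the gene's strand, and the capitals mark the longest run of bases that all 3 share.
Zfp979, chr4:147642459-147642758, minus strand: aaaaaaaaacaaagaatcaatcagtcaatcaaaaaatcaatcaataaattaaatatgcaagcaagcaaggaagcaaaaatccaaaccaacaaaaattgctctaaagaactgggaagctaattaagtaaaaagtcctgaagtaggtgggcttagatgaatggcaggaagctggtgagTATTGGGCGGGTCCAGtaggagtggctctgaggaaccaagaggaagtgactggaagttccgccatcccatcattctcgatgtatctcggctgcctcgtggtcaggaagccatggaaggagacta
Zfp980, chr4:145670447-145670746, plus strand: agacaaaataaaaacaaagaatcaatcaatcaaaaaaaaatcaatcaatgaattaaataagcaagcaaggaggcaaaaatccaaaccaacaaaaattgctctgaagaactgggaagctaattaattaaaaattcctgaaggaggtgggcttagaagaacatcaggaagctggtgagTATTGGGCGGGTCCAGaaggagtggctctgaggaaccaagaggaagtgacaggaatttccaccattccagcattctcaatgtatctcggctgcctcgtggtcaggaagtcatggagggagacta
Zfp984, chr4:147809739-147810038, minus strand: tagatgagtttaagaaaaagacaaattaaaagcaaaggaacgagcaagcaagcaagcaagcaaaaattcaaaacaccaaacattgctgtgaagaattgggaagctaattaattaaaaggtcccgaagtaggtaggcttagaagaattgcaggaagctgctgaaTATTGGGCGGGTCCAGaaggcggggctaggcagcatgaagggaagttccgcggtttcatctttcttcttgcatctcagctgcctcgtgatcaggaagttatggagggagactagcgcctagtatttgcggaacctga
In a pairwise alignment Zfp979 and Zfp980 had 274 identical bases of 300 and Zfp979 and Zfp984 had 224. The promoters of Zfp600 and Rex2, both higher in siPlat, had 299 identical bases with each other and 290 each with Zfp979. The shared run of 16 bases contains ATTGG, the reverse complement of the CCAAT motif that NF-Y binds. CCAAT on either strand is common, present in 37.4% of all 32851 RefSeq promoters of this length and in 39.9% of the 8974 tested genes with a promoter in the table. A promoter was present there for 78.5% of the genes called higher, 80.3% of those called lower and 80.6% of all tested genes. Of those with a promoter, 43.0% (80 of 186) of the genes called higher and 40.5% (51 of 126) of those called lower held CCAAT. Both shares are near that of all tested genes, genes without a promoter are left out, and no test was made. The whole run, on either strand, was found in 8 of 27025 promoters taken 1 per symbol, all 8 on chromosome 4. All 8 genes were tested. Rex2, Zfp600, Zfp979, Zfp980 and Zfp984 were higher by edgeR, none was lower, and Gm13212 (-0.31), Zfp985 (-0.33) and Zfp988 (-1.42) did not pass. Zfp534 (2.94), Zfp992 (2.43) and Zfp978 (1.69) were also called higher in this stretch and were not among the 8. The aligned promoters include that of Zfp534, with 238 bases identical to Zfp979, but not those of Zfp992 and Zfp978. The call of Rex2 was lost without siCtrl 1 and that of Zfp600 without either siCtrl library. The run was derived from genes called higher, so these counts are a description.

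The other 5 stretches were shorter. On chromosome 17 from 35916434 to 36111658, in the major histocompatibility complex, H2-T22 was at 52.3 and 45.1 CPM in siCtrl 1 and 2, against 183 and 135 CPM in siPlat 1 and 2 (log2 fold change 1.71, SE 0.20, edgeR adjusted p = 0.00148), the overlapping antisense gene A930015D03Rik rose (1.03), H2-T-ps rose and Ppp1r10, a nuclear regulator of protein phosphatase 1, fell (-1.19). H2-T22 is a nonclassical class I gene with close copies. On chromosome 2 from 156008045 to 156312704 Rbm39, Scand1 and Romo1 rose and Ergic3 fell among 8 tested genes. Scand1 was at 47.2 and 46.8 CPM in siCtrl, against 143 and 148 CPM in siPlat (log2 fold change 1.63, SE 0.17, edgeR adjusted p = 0.000744). On chromosome 2 from 85437528 to 90834437 Olfr995, Fnbp4 and Agbl2 fell and Olfr1104 rose. Fnbp4, which lies next to Agbl2, was at 262 and 236 CPM in siCtrl 1 and 2, against 133 and 138 CPM in siPlat 1 and 2 (log2 fold change -0.88, SE 0.16, edgeR adjusted p = 0.0156). On chromosome 17 from 12966796 to 14404790 Wtap, Tcte2 and Afdn rose and Smoc2 fell. On chromosome 8 from 71091701 to 72153142, 5 of 16 tested genes rose (Gm7827, Mrpl34, Dda1, Bst2 and Zfp961) and Tpm4 fell. In these 5 stretches A930015D03Rik, Romo1, Fnbp4, Olfr1104, Wtap, Tcte2, Afdn, Smoc2, Gm7827, Mrpl34 and Dda1 lost their calls without siCtrl 1 or siCtrl 2, and Bst2, Zfp961, Tpm4 and Ergic3 without siCtrl 2. Olfr1104 and Gm7827 also lost theirs without siPlat 1, and Ergic3 without either siPlat library.

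By gene type, 373 of 10545 protein-coding genes were called (3.54%), 12 of 462 long noncoding genes (2.60%) and 9 of 112 pseudogenes (8.04%). The pseudogenes included Apoo-ps, at 54.1 and 55.5 CPM in siCtrl 1 and 2, against 12.7 and 6.75 CPM in siPlat 1 and 2 (log2 fold change -2.50, SE 0.29, edgeR adjusted p = 0.00122), and Gm12657, at 3.42 and 2.90 CPM in siCtrl, against 0 and 0 CPM in siPlat, whose 102 siCtrl counts against 0 make it at least 25.8-fold lower, a call lost without siCtrl 1. Reads of a processed pseudogene and its parent gene can be hard to separate.

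Shorter transcripts tended to be higher in siPlat. The median log2 fold change was 0.13 in the quintile of tested genes with the shortest annotated transcripts and -0.16 in the quintile with the longest, and 79 genes were called higher and 23 lower in the shortest quintile against 24 and 34 in the longest. Genes called higher had a median transcript length of 2136 bases, those called lower 2872 and all tested genes 2936. The same measure also differed between pools of the same treatment. The shortest quintile minus the longest, as the median log2 difference between libraries with a pseudocount of 1 CPM, was 0.18 for siCtrl 2 minus siCtrl 1 and -0.27 for siPlat 2 minus siPlat 1. Between groups it ranged from 0.04 for siPlat 2 minus siCtrl 2 to 0.51 for siPlat 1 minus siCtrl 1. The difference by length between groups was thus not larger than the spread between replicates in every pair, and its part in the calls was not tested.

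**Figure D5:**
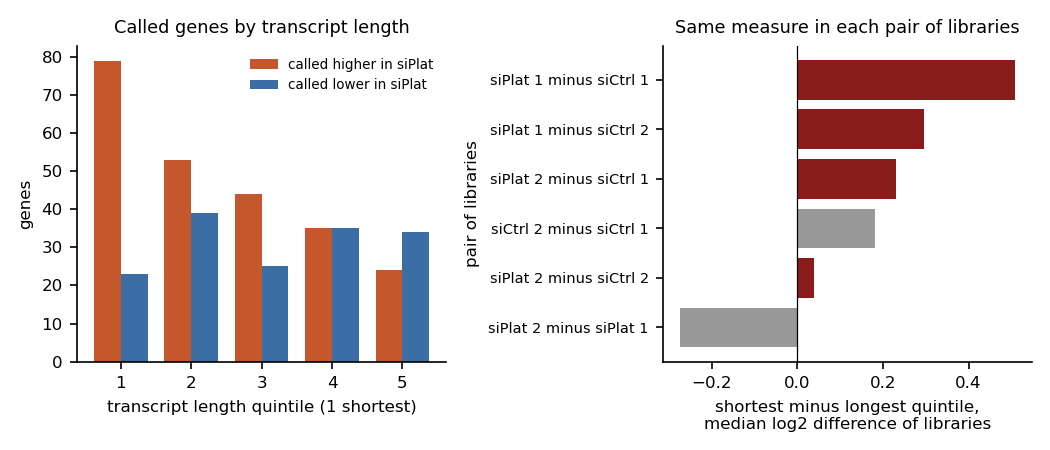
Left, the number of genes called higher or lower in siPlat in each quintile of annotated transcript length; right, the median log2 difference of the shortest quintile minus that of the longest for each pair of libraries, grey within a group and red between groups. The shortest quintile holds 79 genes called higher and 23 lower, and the pairs within a group reach 0.18 and -0.27 while pairs between groups run from 0.04 to 0.51.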

How the data were processed

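Polyadenylated RNA of 4 pools of 10 MII oocytes (2 siCtrl, 2 siPlat) was measured by Smart-seq2 with 16 cycles of cDNA amplification and Tn5 tagmentation, per the labels' protocols. The table the authors deposited holds raw integer read counts for each gene, without normalisation. STAR 2.7.10b, HTSeq 0.13.5 and the build mm10 are named per the submitters' processing notes; the annotation and the strand setting are not given in the sources used here. Groups come from the treatment labels, which the titles call WT and KD. Totals per library ran from 12142884 to 17475952 counts, and genes with few counts are measured less precisely.

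From the deposited counts, genes passing edgeR's default filter (minimum count 10, minimum total 15) were tested with edgeR 4.0.16 in R 4.3.3 by the quasi-likelihood test with TMM factors, a robust fit and no covariate, and called at a Benjamini-Hochberg adjusted p under 0.05 over all tested genes. CPM values are TMM-scaled and give relative levels. The SE is the absolute log2 fold change divided by the square root of F. Alternatives were RLE and upper-quartile factors, DESeq2 1.42.0, limma 3.58.1 with voom, 2 other filters, each library left out, and the replicate number as a block. limma-voom with a robust prior was added after seeing the data. The test was checked on simulated data; its pass criterion was changed after a first, stricter one on recovery was missed, and the missed genes were mainly those of low level.

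The genes described, the gene lists and the questions asked were chosen with earlier results of these data known. The text names Plat, Mos, Gdf9 and Prdx1; the 10 highest and 10 lowest log2 fold changes among genes called in every fit with a library left out; the 10 called genes in each direction with the largest change in mean CPM; called list members; called genes of stretches with at least 4 called among 10 neighbours; and the 5 called noncoding genes of largest change. Further genes called in every such fit were named after their values were seen. Positions and lengths come from GENCODE and promoters from RefSeq, both GRCm38, the assembly that mm10 names; 13950 of 14165 symbols matched GENCODE. The single-oocyte counts, from the authors' other deposited table, were used for levels only, without the 92 ERCC spike-in entries.

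Whether same-numbered pools were paired is not known. Their deviations from the group means correlated at -0.06 over the tested genes. With 2 pools per group this value cannot show whether pools were collected or processed together.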

Additional observations from a re-analysis of the deposited data

How the results depend on the processing

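The number of called genes depended on the libraries and the tool. Leaving out 1 library gave 157 to 1145 calls, 72 to 645 higher and 68 to 500 lower: 157 without siCtrl 1, 160 without siCtrl 2, 713 without siPlat 1 and 1145 without siPlat 2. With 1 library left in a group, that library is assumed to vary like the other group. DESeq2 called 683 genes, 441 higher and 242 lower, and without a filter on low counts 240 genes were lower. The replicate block gave 273 calls (158 higher, 115 lower), 267 of them shared with the fit without it. Whether the numbers pair the pools is not known. The other counts (RLE and upper-quartile factors, limma-voom, the stricter filter, all calls and higher calls without a filter, and limma-voom with a robust prior at 506) stayed within 1.5 times. DESeq2 shared 371 of the 394 calls, and the fits without siCtrl 1 and siCtrl 2 shared 124 and 125. Of 224 genes followed through 12 alternatives none changed direction; over all genes and alternatives 142 values lost their call and 214 gained one. The causes were not tested. With 2 pools per group, and fewer counts at low levels, a gene that was not called may still differ.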

Other observations

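The single oocytes, labelled with no treatment, give levels of the same genes in other libraries, from a table normalised separately, with 1 sample for each age and no test. Of the 79 genes called with any 1 library left out, 78 were matched. On a log2 scale with a pseudocount of 1 CPM, the level summed over the 35 young oocytes lay nearer to the siCtrl mean for 53 of them and nearer to the siPlat mean for 25. The nearer group was not always close, since young levels could lie outside both groups. Hormad1, counted for siCtrl, was at 1.41 CPM in the young against means of 115 in siCtrl and 271 in siPlat. Timm10, counted for siPlat, was at 3.18 CPM against 39.2 and 10.5. The counts thus do not show that either group resembled the untreated oocytes. Plat itself was at a median of 7077 CPM in young single oocytes, far above both groups of pools. Gm11545 was at 137 CPM, near siCtrl, and H2-T22 and Stk32a, which were higher in siPlat, were at 0 CPM in the young oocytes. Others went the other way: Pramel27, without a count in siCtrl, was at 196 CPM, Zfp979 at 274 CPM and Hsd17b13 at 36.9 CPM, all nearer to siPlat. Agbl2, without a count in siPlat, was at 1.28 CPM and Rassf4 at 0.222 CPM, also nearer to siPlat. Trim21 and Pak3, both lower in siPlat, had a young median of 0 CPM.

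Genes called in the pools did not stand clearly apart between ages. Of the genes called higher in siPlat 50.6% were higher in the aged sample, of those called lower 41.0%, and of all tested genes 46.4%. Without the 21 aged libraries whose mitochondrial share was above 5% the shares were 63.8%, 57.1% and 61.4%. These are shares of genes in 1 sample per age, and no test was made of them.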
